A study of Mus musculus with 12 samples.

Results

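Lbh, the gene named after limb bud and heart, was represented by 2 of the 25696 probes on the array, or 1 of 16593 named genes. Both probes annotated to it were taken. The gene was selected on its brightness and on its detection on every array of this series, so these properties are given as a description and not as a finding. Exosomes, small vesicles released by cells, had been collected from HL-1 cells (mouse cardiomyocytes of atrial origin, an established line that contracts in culture) in 12 samples of 1 T75 culture flask each. The 4 control samples received no growth factor, 4 samples received TGF-β2 at 10 ng/mL and 4 received PDGF-BB at 100 ng/mL. The growth factors were given in serum-free media without antibiotics, and the media of all 3 groups were taken after 23 h. The study does not state whether the control medium was serum-free too. Total exosome RNA was amplified and each sample was hybridised to 1 array. In the study 1 PDGF-BB sample was left out as an outlier, for poor labelling and hybridization, and its matching cell sample was an outlier too. The sample was not named, so all 4 are used here, and 1 of them is the array that the study rejected. The range of values with an array left out is given for the differences between groups. Arrays of the parental cells were not used here. The p-values measure the spread between flasks of a single cell line.

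Lbh encodes a small acidic protein that acts as a cofactor of transcription. It is known in the mouse from the ectoderm of the limb bud and from the embryonic heart, where it has been placed beside the cardiac transcription factors Nkx2-5 and Tbx5 and their target Nppa, the gene of atrial natriuretic peptide. In mammary epithelium it is a target of canonical Wnt signalling, in which β-catenin acts with TCF/LEF proteins on DNA.

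The gene lies on chromosome 17 of the mouse genome, from position 72918305 to 72941946 on the forward strand (GRCm38.p6, RefSeq), a stretch of 23642 bases. The RefSeq sequence just upstream of the transcription start, chr17:72918055-72918304, is shown because the pathways of the study and of the gene have short DNA motifs that can be looked up in it. Capitals mark matches on either strand. The letters searched were TATAAA for the TATA box. They were GGGCGG for the GC box. The half-site of the cyclic AMP response element was searched as TGACGT. A core bound by TCF/LEF proteins was searched as CTTTGT.
Lbh upstream: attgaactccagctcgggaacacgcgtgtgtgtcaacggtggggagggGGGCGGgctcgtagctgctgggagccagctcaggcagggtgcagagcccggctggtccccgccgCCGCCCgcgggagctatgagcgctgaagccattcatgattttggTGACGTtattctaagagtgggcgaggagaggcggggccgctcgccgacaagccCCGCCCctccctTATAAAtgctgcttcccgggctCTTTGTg
TATAAA began 29 bases before the start and is found in 12.4% of the 32851 upstream windows of this length. There were 3 GC boxes, a motif that 32.7% of windows hold, and 1 TGACGT, which 6.47% hold. CTTTGT matched once and occurs in 16.5% of windows. The other TCF/LEF core searched, CTTTGA (13.8% of windows), the SMAD half-site CAGAC (42.2%), the palindrome GTCTAGAC (0.167%) and the E-box CACGTG (6.02%) had no match in this window. G and C made up 64.8% of the bases, against a median of 52.4% over all windows. None of these matches was tested for binding.

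The probe called probe 1 here (ILMN_2816180) was detected on 12 of 12 arrays with a detection p of 0, which means that no negative control bead type of the array reached its signal. In this series 26 probes were detected on all 12 arrays at a detection p under 0.01, and 34 probes fell just outside with 11. In the scanner table, whose signals are background-subtracted but not scaled between arrays, probe 1 read 481, 3269, 1239 and 1026 arbitrary units in the control arrays, given here and below in order of sample number. The TGF-β2 arrays read 854, 769, 2106 and 504. The PDGF-BB arrays read 228, 309.5, 1165 and 517. The groups overlapped, and control sample 2 stood highest while PDGF-BB samples 1 and 2 stood lowest. The control mean was 1504 ± 1220, the TGF-β2 mean 1058 ± 714 and the PDGF-BB mean 555 ± 425 (SD, n = 4 each).

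Each signal is the mean of 25 to 48 beads, and the standard error over those beads was 4.59 to 9.35% of the Lbh signal, with a median of 5.92%. The SD between the control arrays was 81.1% of their mean, but these signals are not scaled and the highest signal of a control array itself ran from 4060 to 24776. As a share of that highest signal, a measure chosen after the values were seen, Lbh had an SD between the control arrays of 4.41% of its mean. That is close to its bead standard error, but the other groups spread more. The SD of the share was 12.7% of its mean with TGF-β2, 13.1% with PDGF-BB and 23.2% over all 12 arrays. On its weakest array, PDGF-BB sample 1, probe 1 lay 2.89-fold over the lowest signal with a detection p under 0.01, and on its strongest, control sample 2, it lay 39.7-fold over it. In bulk exosome RNA, fewer vesicles and less Lbh mRNA per vesicle cannot be told apart.

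**Figure D1:**
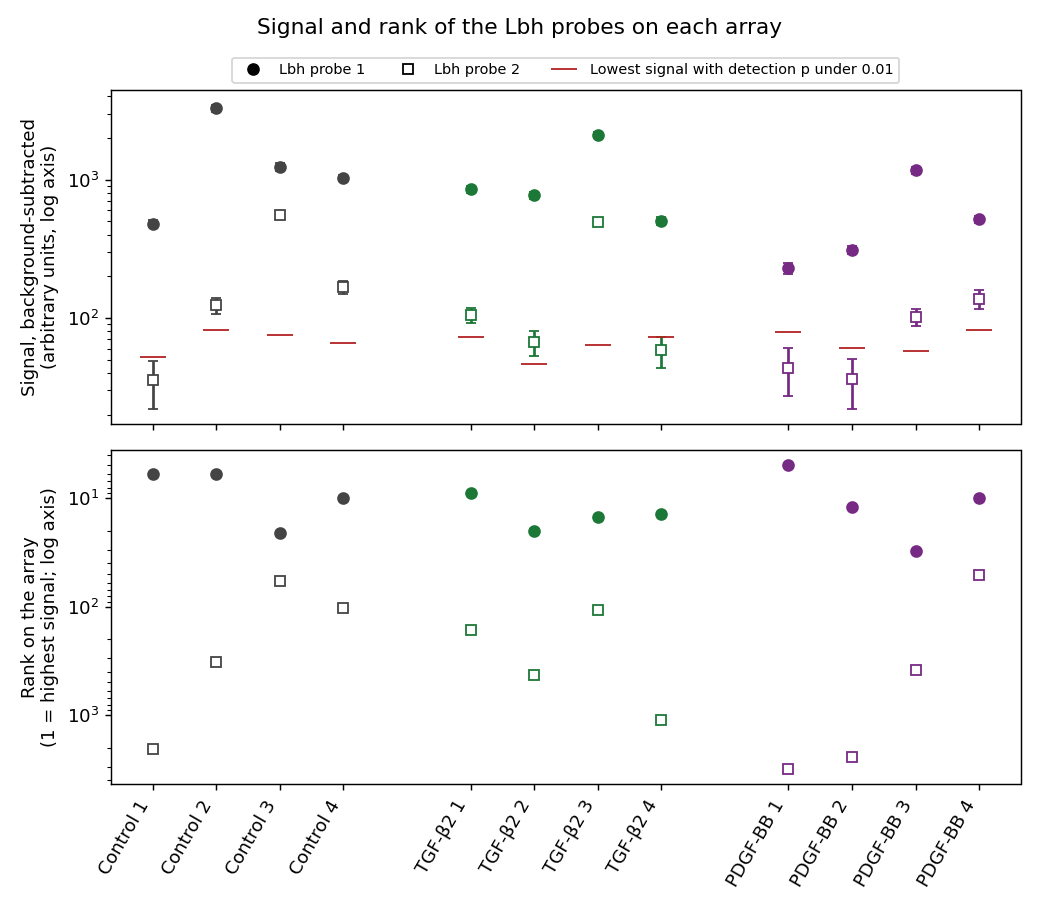
Signal (upper panel, arbitrary units on a log axis, error bars are the standard error over beads) and rank on the array (lower panel, log axis, 1 is the highest signal) of both Lbh probes on each of the 12 arrays. Filled circles are probe 1, open squares are probe 2, and red bars give the lowest signal with a detection p under 0.01; probe 1 keeps ranks of 5 to 31 while probe 2 falls below the red bar on 4 arrays.

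By rank on its own array, a measure that needs no scaling between arrays, Lbh stood within the brightest 0.121% of probes everywhere. The control arrays placed probe 1 at ranks 6, 6, 21 and 10, the TGF-β2 arrays at 9, 20, 15 and 14, and the PDGF-BB arrays at 5, 12, 31 and 10. The best rank (5) and the poorest (31) were both found with PDGF-BB, and the groups overlapped. Such a rank mixes the amount of a transcript with how well its probe responds, so that it orders arrays for Lbh and does not order Lbh among genes. The control mean rank was 10.75 ± 7.09, that of TGF-β2 14.5 ± 4.51 and that of PDGF-BB 14.5 ± 11.4 (SD, n = 4 each). An exact two-sided permutation test, which with 70 assignments cannot go below p = 0.0286, gave p = 0.40 for TGF-β2 against control, p = 0.629 for PDGF-BB against control and p = 1 for TGF-β2 against PDGF-BB. After adjustment over the 3 comparisons these were 0.943, 0.943 and 1. Among the 26 probes detected on every array, Lbh ranked between 5 and 12.

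The second probe of the gene, probe 2 (ILMN_1233545), gave a different picture. It was detected on 8 of 12 arrays, 3 of control, 3 of TGF-β2 and 2 of PDGF-BB. The control arrays read 35.5, 123, 553 and 167 arbitrary units, the TGF-β2 arrays 105, 66.6, 496 and 58.6, and the PDGF-BB arrays 43.7, 36.2, 101 and 137. The detection p was 0.0752 in control sample 1, 0.0263 in TGF-β2 sample 4, 0.127 in PDGF-BB sample 1 and 0.0915 in PDGF-BB sample 2. These 4 arrays held the lowest signals of probe 2, and there the value is at or near the level of the negative controls. Its bead standard error ranged from 4.89 to 39.6% of the signal, and its rank ranged from 51 to 3158.

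The probes did not keep a fixed proportion. The signal of probe 1 over that of probe 2 on the same array had a median of 7.14 over the 8 arrays on which probe 2 was detected, and ran from 2.24 in control sample 3 to 26.5 in control sample 2. On the other 4 arrays only a bound can be given, against the lowest detected signal, which was at least 9.20 in control sample 1, 6.93 in TGF-β2 sample 4, 2.89 in PDGF-BB sample 1 and 5.12 in PDGF-BB sample 2. Both extremes are control arrays on the same chip, and both probes were detected on both of them. Across the 12 arrays the normalized log2 intensities of the probes gave Pearson's r = -0.23 (permutation p = 0.474, adjusted 0.474) and Spearman's rho = -0.29 (permutation p = 0.351, adjusted 0.351). The adjustment covers the 3 relations computed, of which the other two are given with the numbers of detected probes. Without control sample 3 and PDGF-BB sample 4, the 2 arrays farthest from the median of probe 2, r was -0.14, and it was -0.58 on chip 1 and -0.02 on chip 2 (6 arrays each). These values include the 4 arrays where probe 2 was not above background. Over the other 8 arrays, chosen after the values were seen, r was 0.12 (exact permutation p = 0.774) and rho was 0.14 (exact permutation p = 0.735), and r was -0.76 without TGF-β2 sample 2 and PDGF-BB sample 3, so that no stable relation between the probes was measured. Which part of the Lbh transcript each probe binds is not given in the sources used here.

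For the comparison of levels, the signals were background-corrected and quantile-normalized, and the log2 intensity was taken. Lbh probe 1 then stood at 10.79, 10.79, 9.27 and 10.13 in the control arrays. The TGF-β2 arrays had 10.30, 9.31, 9.66 and 9.74. The PDGF-BB arrays had 11.14, 9.83, 8.79 and 10.13. PDGF-BB samples 1 and 3 were the highest and the lowest of all, and the groups overlapped. Quantile normalization gives equal ranks an equal value, so control samples 1 and 2, both at rank 6, share a log2 intensity of 10.79 although their signals were 481 and 3269. The means of control, TGF-β2 and PDGF-BB were 10.24 ± 0.72, 9.75 ± 0.41 and 9.97 ± 0.96 (SD, n = 4 each).

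**Figure D2:**
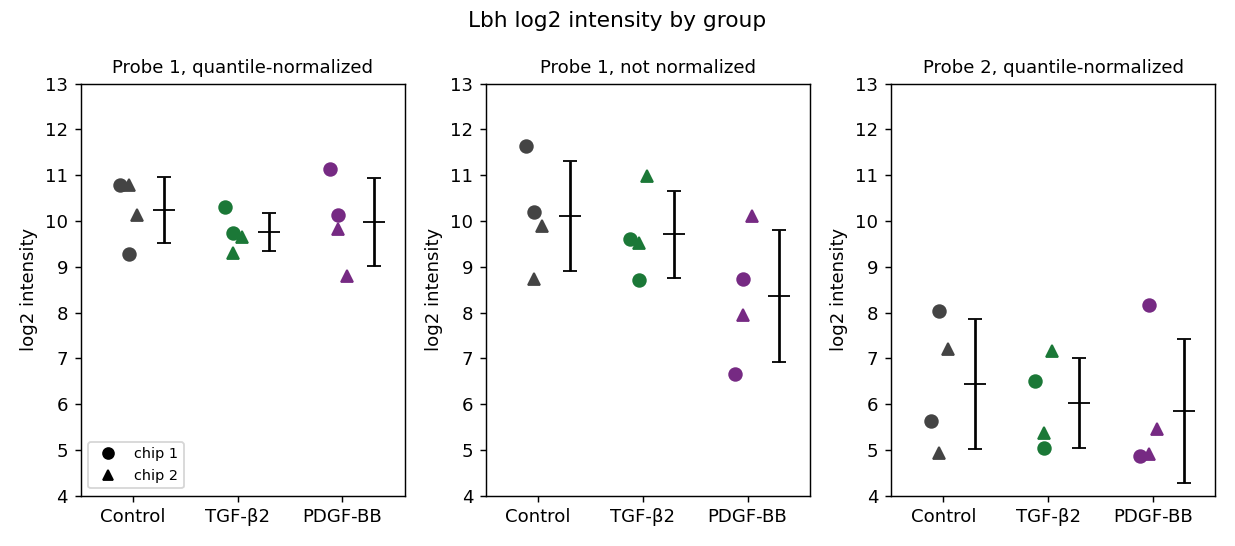
Log2 intensity of Lbh by group for probe 1 after quantile normalization, probe 1 without normalization between arrays, and probe 2 after quantile normalization. Circles are arrays of chip 1, triangles are arrays of chip 2, and the bars give the mean and SD of 4 arrays; the groups overlap in each panel, and of the left and middle panels the PDGF-BB mean of probe 1 lies lowest in the middle one.

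The first comparison asked whether TGF-β2 changed the Lbh content of the exosomes. The log2 difference of probe 1 from control was -0.49 ± 0.48 (SE, 95% interval -1.54 to 0.56), with an adjusted p = 1 by limma. Probe 2 differed by -0.43 ± 0.85 (adjusted p = 1 by limma), and by 0.088 without control sample 3 and -0.96 without control sample 1. Neither passed the threshold, and the interval of probe 1 leaves room for an appreciable fall or a small rise. Over all 1099 tested probes, 0 passed (0%), and 8 had an unadjusted p under 0.05.

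The comparison of PDGF-BB with control gave -0.27 ± 0.48 for probe 1 (SE, 95% interval -1.32 to 0.78, adjusted p = 0.966 by limma). Probe 2 differed by -0.60 ± 0.85 (adjusted p = 0.944 by limma), and by -1.42 without PDGF-BB sample 4, -0.07 without control sample 3 and -1.22 without normalization between arrays. Again 0 of 1099 probes passed (0%), with 48 at an unadjusted p under 0.05. The size of the Lbh value depended on the scaling. Without normalization between arrays it was -1.75 (95% interval -3.50 to -0.0025, unadjusted p = 0.0497, adjusted p = 0.929 by limma). On this scale PDGF-BB sample 1 stood lowest, at a log2 intensity of 6.66, and values with an array left out were not computed. The median of all tested probes was then -0.20, against -0.06 with quantile normalization. Nearly all of these probes are weaker than Lbh, so their median does not measure the shift at the brightness of Lbh. Whether other bright probes shifted as far was not tested. Scaling to the 75th percentile gave -1.13 (unadjusted p = 0.0442, adjusted p = 0.965 by limma), and the authors' cubic spline values gave -0.07. Without PDGF-BB sample 3 the normalized difference turned to 0.12, and without PDGF-BB sample 1 it was -0.66.

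Between the growth factors, TGF-β2 minus PDGF-BB was -0.22 ± 0.48 for probe 1 (SE, 95% interval -1.27 to 0.83, adjusted p = 0.895 by limma) and 0.17 ± 0.85 for probe 2 (adjusted p = 0.960 by limma). Of the 1099 probes 0 passed (0%), with 52 at an unadjusted p under 0.05. The sign for Lbh turned to 1.35 without normalization between arrays, to 0.53 with scaling to the 75th percentile and to 0.17 without PDGF-BB sample 1. Without control sample 1 alone, 2 probes passed for PDGF-BB against control and 1 for TGF-β2 against PDGF-BB, and the Lbh difference for PDGF-BB was then -0.09. Both growth factors were compared with the same control arrays, so these differences are not independent.

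The arrays lay on 2 chips, each with 2 arrays of every group. Fitted within chip 1, Lbh differed from control by -0.01 with TGF-β2 and by 0.61 with PDGF-BB. Within chip 2 the values were -0.89 and -1.04. The chips thus gave opposite signs for PDGF-BB, and TGF-β2 minus PDGF-BB was -0.63 on chip 1 and 0.14 on chip 2. In a model with an interaction of treatment and chip, added after these values were seen, the log2 difference of PDGF-BB from control on chip 2 minus that on chip 1 was -1.75 ± 0.85 (SE, unadjusted p = 0.0733, adjusted p = 0.422 by limma). For TGF-β2 it was -0.97 ± 0.85 (adjusted p = 0.588 by limma).

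**Figure D3:**
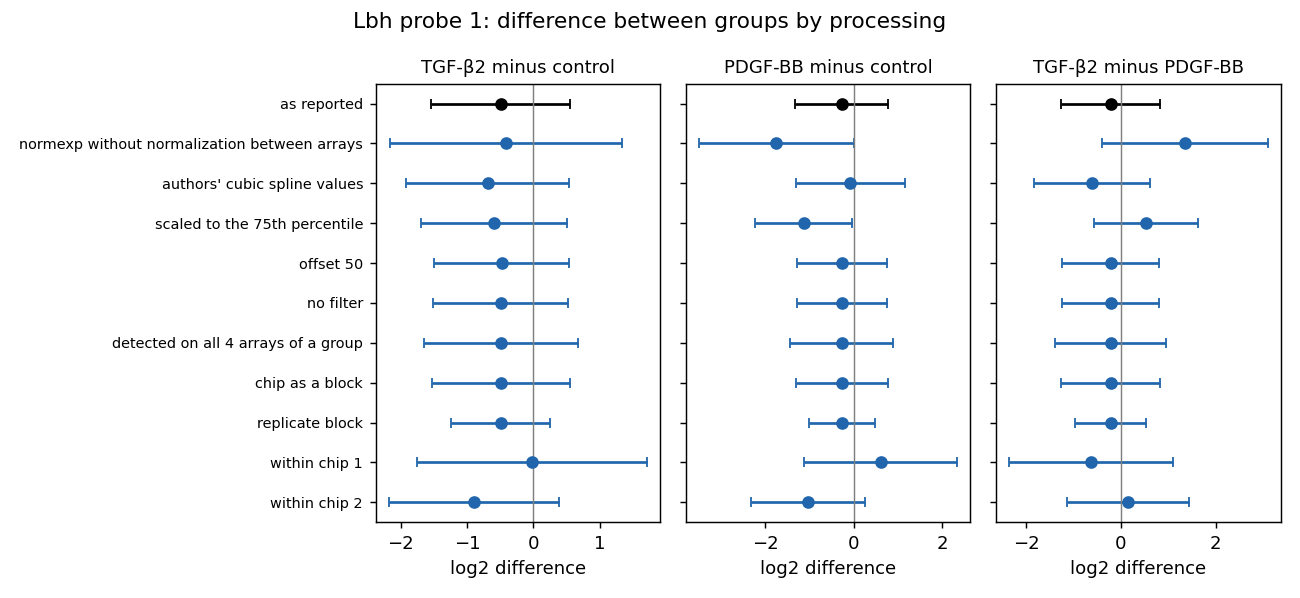
Log2 difference of Lbh probe 1 (x axis) for the 3 comparisons under each processing (y axis), with 95% intervals from limma. Black points are the values reported, blue points the alternatives; for PDGF-BB minus control the value ranges from -1.75 without normalization between arrays to 0.61 within chip 1.

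As an observation made after the values were seen, the Lbh signal as a share of the highest signal of its own array was nearly constant in control exosomes, at 11.8 to 13.2%. It was 9.76 to 12.9% with TGF-β2 and 6.06 to 8.21% with PDGF-BB, so that all 4 PDGF-BB arrays lay below all control and TGF-β2 arrays. By this measure 0.91% of the 1099 tested probes (10) lay lower in every PDGF-BB array than in any control array. The share to be met without any difference was not computed, so 0.91% does not show that such a separation is rare. How many of these probes also lay below every TGF-β2 array was not counted. The highest signal belonged to Rpl23, a protein of the large ribosomal subunit, on 10 arrays, and to a probe with no gene name on PDGF-BB samples 2 and 3. Set against Rpl23 on every array, Lbh stood at 6.06, 9.10, 13.8 and 7.83% of it in the PDGF-BB arrays. PDGF-BB sample 3 was then above every control array, so the separation of the groups depends on the signal chosen as the measure. No test was made on these shares.

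The Lbh level was set against the number of probes detected on an array, which ran from 294 in PDGF-BB sample 4 to 1506 in TGF-β2 sample 3. No relation passed the threshold on the normalized scale after adjustment. Over the 12 arrays probe 1 gave Pearson's r = -0.57 (permutation p = 0.0539, adjusted 0.162) and Spearman's rho = -0.60 (permutation p = 0.0421, adjusted 0.126). Without control sample 3 and TGF-β2 sample 3, the 2 arrays farthest from the median number, r was -0.56 (permutation p = 0.0968). Chip 1 gave -0.47 and chip 2 gave -0.58, with 6 arrays each. On the scale without normalization the sign turned, with r = 0.70 (permutation p = 0.0103), and with the authors' values r was -0.76 (permutation p = 0.0045). Lbh probe 2 on the normalized scale gave r = 0.27 (permutation p = 0.398, adjusted 0.474) and rho = 0.35 (permutation p = 0.267, adjusted 0.351), r = -0.22 without the same 2 arrays, and r = 0.25 and 0.47 on chips 1 and 2. The mean number of detected probes was 740.5 ± 315 in control, 894 ± 460 in TGF-β2 and 527 ± 366 in PDGF-BB exosomes (SD, n = 4 each). Its part in the Lbh differences between groups was not tested.

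**Figure D4:**
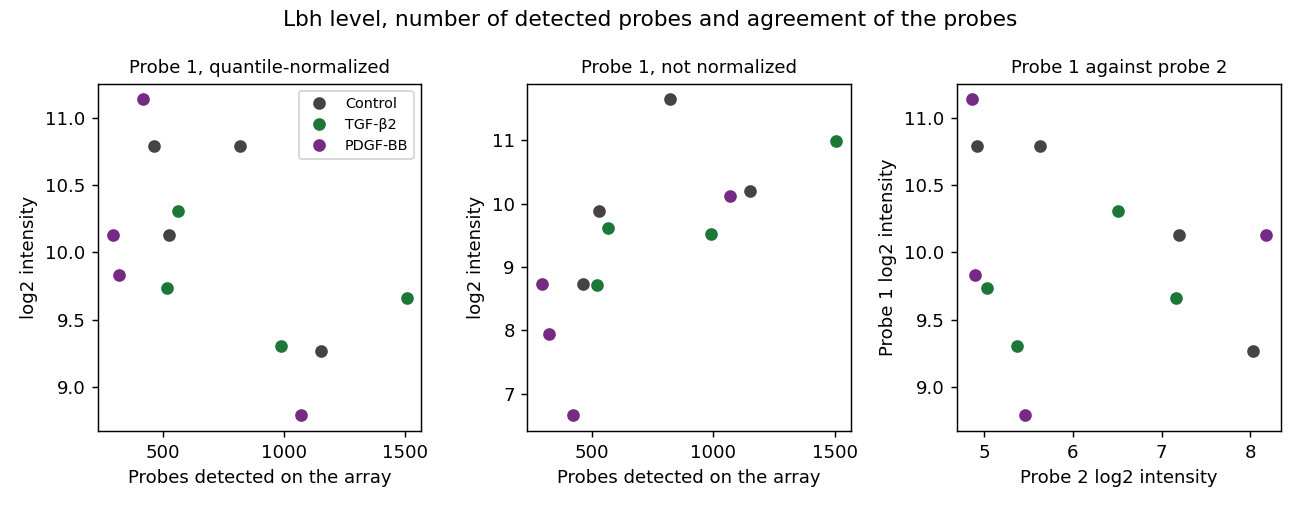
Lbh probe 1 log2 intensity against the number of probes detected on the array after quantile normalization (left) and without it (middle), and probe 1 against probe 2 after quantile normalization (right), with 1 point per array coloured by group. The left panel falls (r = -0.57), the middle panel rises (r = 0.70), and the right panel shows little relation between the probes (r = -0.23).

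Over all 12 arrays the SD of Lbh probe 1 was 0.70 on the log2 scale, the 14th lowest of the 26 probes detected on all arrays, whose median was 0.69. Its residual SD within groups was 0.73, against a median of 0.50 over the 1099 tested probes. Lbh thus varied about as much as the other probes detected everywhere. The tested probes include 355 detected on only 3 arrays, so their median does not describe probes as bright as Lbh.

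Genes were ranked by how closely their normalized level followed Lbh probe 1 over the 12 arrays, among 55 genes detected on at least 11 of them. The closest was Erich5 (r = 0.92), followed by Rpl38 (r = 0.84) and Rps14 (r = 0.66), which encode proteins of the large and the small ribosomal subunit. Htatsf1, a factor of transcript elongation and splicing, had r = 0.65 and the histone chaperone Nap1l1 had r = 0.60. Least like Lbh were Rps2 (r = -0.82), of the small ribosomal subunit, Hspa8 (r = -0.78), a constitutive heat shock chaperone, and Rps19 (r = -0.75), also of the small subunit. Ribosomal protein genes stood at both ends, and the median r of the 55 genes was -0.21. These are the extremes of the pool, arrays share their processing, and no p is given.

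Erich5 had a log2 intensity of 9.74, 8.81, 6.87 and 8.07 in the control arrays, 8.0, 7.49, 7.76 and 7.70 in the TGF-β2 arrays, and 9.31, 7.49, 6.84 and 8.81 in the PDGF-BB arrays. On this normalized scale Erich5 was high where Lbh was high, in control sample 1 and PDGF-BB sample 1. It was low with Lbh in control sample 3 and PDGF-BB sample 3. Without normalization between arrays the order for Lbh turned, with 8.73 in control sample 1 and 6.66 in PDGF-BB sample 1. Control sample 3 then had 10.20 and PDGF-BB sample 3 had 10.12. The likeness of genes was computed on the normalized scale only. Rps2 had 5.38, 7.95, 10.30 and 8.45 in the control arrays, 7.90, 8.94, 9.58 and 8.94 in the TGF-β2 arrays, and 4.75, 9.48, 9.14 and 8.28 in the PDGF-BB arrays. On the normalized scale Rps2 was lowest in the arrays where Lbh and Erich5 were highest. Rps2 and Hspa8 were each detected on 11 of 12 arrays. In PDGF-BB sample 1 they read 4.75 and 4.94, near the 4.86 of Lbh probe 2, which was not above background there. The ranking depended on PDGF-BB sample 1. Without that array, an alternative chosen after the values were seen, Pptc7 came first with r = 0.91, against -0.03 over all arrays, followed by Erich5 (0.90), Klhdc10 (0.87, against -0.17), Ptp4a2 (0.84, against -0.18) and Rpl38 (0.78). Rps14 (0.66), Htatsf1 (0.51) and Nap1l1 (0.37) moved to places 9, 15 and 24 of 55. Erich5 and Rpl38 were thus the 2 of the 5 closest genes that stayed among them, and the median r of the pool was 0.25. At the other end Rpl9 (-0.81), Rps2 (-0.75) and Rps27 (-0.71) were then lowest, with Rps2 the 1 gene in common. With Lbh probe 2 in place of probe 1, Erich5 had r = -0.21 and Rps2 had r = 0.44, but probe 2 was not above background on 4 arrays, among them control sample 1 and PDGF-BB sample 1.

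**Figure D5:**
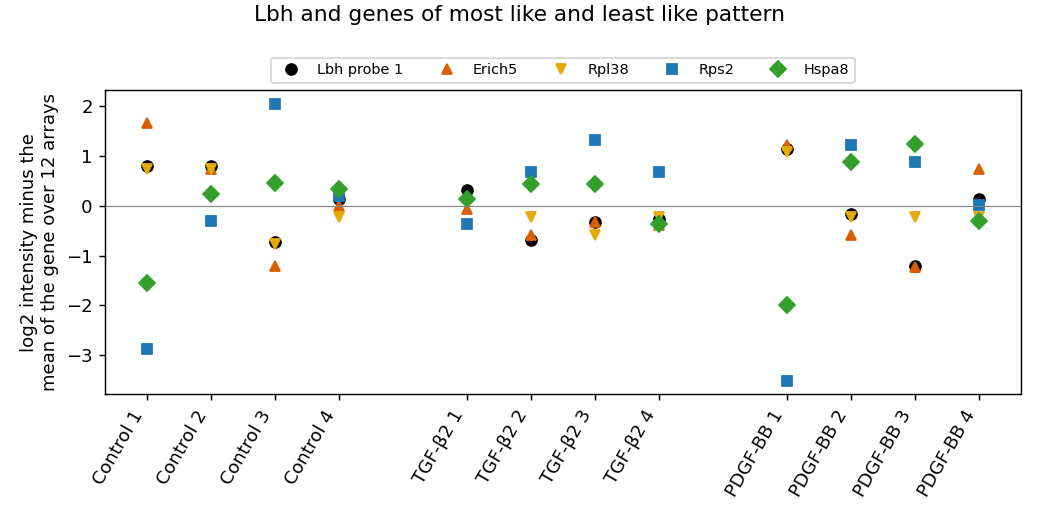
Quantile-normalized log2 intensity of Lbh probe 1, Erich5, Rpl38, Rps2 and Hspa8 on each of the 12 arrays, each minus its own mean over the arrays. Erich5 (r = 0.92) and Rpl38 (r = 0.84) lie on the side of Lbh, while Rps2 (r = -0.82) and Hspa8 (r = -0.78) lie opposite, most clearly in control sample 1 and PDGF-BB sample 1. In PDGF-BB sample 1 Rps2 and Hspa8 read near the level of a probe that was not above background.

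Of 22 cardiac transcription factors and targets on the array, 6 were detected on at least 1 array (27.3%) and 1 on at least 6 (4.55%), against 17.3% and 2.04% of all named genes. That gene was Myocd, the coactivator of serum response factor in heart and smooth muscle, with 3 control, 4 TGF-β2 and 1 PDGF-BB arrays. Its log2 difference from control was 0.78 in TGF-β2 exosomes (adjusted p = 1 by limma) and -1.72 in PDGF-BB exosomes (adjusted p = 0.820 by limma). Nkx2-5, Tbx5, Gata4 and the natriuretic peptide genes Nppa and Nppb were detected on 0 of 12 arrays, so that their relation to Lbh was not measurable here.

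Of 36 Wnt/β-catenin pathway genes on the array, 6 were detected on at least 1 array (16.7%) and 0 on at least 6 (0%). The shares of all named genes were 17.3% and 2.04%. Dkk3, a secreted member of the dickkopf family, was detected on 3 arrays, 1 in each group, with log2 differences from control of -0.02 (TGF-β2) and 0.17 (PDGF-BB, adjusted p = 1 and 0.953 by limma). Gsk3b, the kinase that marks β-catenin for degradation, was detected in control samples 2 and 3. Ctnnb1, which encodes β-catenin, and Axin2, a feedback target of the pathway, were detected on 0 arrays. Of 15 limb bud genes 1 was detected (6.67%, against 17.3% of all named genes), Hoxd12 on 1 array. The related genes Lbhd1 and Lbhd2 were not matched to a probe.

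The source of the RNA was checked by marker genes. Of 12 cardiomyocyte markers on the array 6 were detected on at least 1 array, among them Myl4, the atrial light chain of myosin, and the calcium pump gene Atp2a2 on 11 arrays each, while Actc1, Tnni3, Ryr2, Pln, Des and Mybpc3 were at 0. The summed signal of these markers was 306 to 1802 in control, 663 to 2805 in TGF-β2 and 322 to 2507 in PDGF-BB samples. Of 8 fibroblast markers 2 were detected, Dcn on 2 arrays and Col3a1 on 1, and of 6 endothelial, 4 leucocyte and 2 erythroid markers 0 were. The share detected on at least 1 array was 50% for the cardiomyocyte and 25% for the fibroblast markers, against 17.3% of all named genes, and with so few markers 0 detected is close to that background.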

How the data were processed

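Lbh and the gene lists were chosen with earlier results of these data known. The deposited scanner table holds, per the file headers, the mean intensity of each probe, its detection p-value, its standard error over beads and its number of beads. The authors had subtracted a background but had not scaled this table between arrays. A second deposited table holds intensity normalized by the authors with cubic splines, on a linear scale, and served as an alternative. The software is GenomeStudio per the labels. Groups and replicate numbers came from sample titles, and chips from array names.

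Signals were corrected with negative control moments inferred from detection p-values, quantile-normalized and log2-transformed with an offset of 16 (neqc, limma 3.58.1, R 4.3.3). The 1099 probes with a detection p under 0.01 on at least 3 of 12 arrays were tested by limma with group means on all arrays, two-sided, Benjamini-Hochberg threshold 0.05. The median SE of a log2 difference was 0.34, and the number of arrays limits the precision. Ranks used exact permutation, and correlations used 100000 permutations (scipy, Python). Genes were named as Lbh, the 5 most and 3 least like it in pattern, members of the lists that were tested, and Nkx2-5, Tbx5, Nppa, Ctnnb1 and Axin2. Rpl23, Pptc7, Klhdc10, Ptp4a2, Rpl9, Rps27, Gata4, Nppb, Gsk3b, Hoxd12 and the markers at 0 were named after their values were seen. The limma, permutation and correlation tests were checked on simulated data. Of 25696 probes, 23977 carried 1 gene symbol, 0 several and 1719 none in the platform annotation. Alternatives were other scalings, offsets and filters, chip and replicate blocks, values within chips, and each array left out.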

Additional observations from a re-analysis of the deposited data

Results flagged for a closer look

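The highest or lowest of 4 arrays lay far from its neighbours, by Dixon's test, in 3 of 30 groups of values examined. The chance rate of about 1 in 20 holds for independent, normally distributed values. These groups share arrays and probes, and some hold ranks or unscaled signals, so the count cannot be set against that rate. The Lbh probe 2 signal in TGF-β2 sample 3 was 496, against at most 105 in the other TGF-β2 arrays. The rank of Lbh probe 2 in control sample 1 was 2046, far poorer than in the other control arrays. PDGF-BB sample 3 had 1070 detected probes, against at most 421 in the others of its group. It also had the poorest rank of Lbh probe 1. No value of Lbh probe 1 itself was set apart in this way.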

How the results depend on the processing

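No Lbh difference passed the threshold under any of the 22 alternative settings run for both probes (129 values, lowest adjusted p = 0.495 by limma), so that only sizes and signs moved. For probe 1, PDGF-BB minus control was 0.61 within chip 1 and ranged from -0.66 to 0.12 with an array left out. TGF-β2 minus PDGF-BB was 1.35 without normalization between arrays, 0.53 with 75th percentile scaling, 0.14 within chip 2, and -0.64 to 0.17 with an array left out. TGF-β2 minus control kept its sign under all settings run, between -0.89 and -0.01. For probe 2, TGF-β2 minus control was 0.24 within chip 2 and -0.96 to 0.088 with an array left out, and TGF-β2 minus PDGF-BB was -0.72 within chip 1 and -0.23 to 0.98 with an array left out, and PDGF-BB minus control was -1.42 to -0.07 with an array left out. Mean rank differences against control within chip 1 were -2.0 for TGF-β2 and -6.0 for PDGF-BB. Within chip 2 they were 9.5 and 13.5. Over both chips the PDGF-BB difference was 3.75, and -1.75 to 7.17 with an array left out. For TGF-β2 minus PDGF-BB it was 0, and -3.17 to 5.5 with an array left out. With an array left out, the number of probes past the threshold was 0 to 2 for PDGF-BB against control and 0 to 1 for TGF-β2 against PDGF-BB. The correlation of Lbh with the number of detected probes was 0.70 without normalization, -0.76 with the authors' values and -0.64 to -0.51 with an array left out. Probe 2 could not be fitted with the filter on all 4 arrays of a group.

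Same-numbered samples did not deviate together in all pairs (r from -0.23 to 0.43, over 0.1 in 7 of 12 pairs). All pairs of number 1 (0.23 to 0.39) and of number 3 (0.37 to 0.43) did. The samples of number 3 also had the most detected probes of their groups, 1152, 1506 and 1070. The part of this in their r was not tested. Pairs of unlike number were not computed, so these r values cannot decide whether same-numbered samples share an experiment. The numbers were not taken to pair samples in the values reported, and a block for them was run as an alternative. With a replicate block the probe 1 differences kept their values of -0.49, -0.27 and -0.22, with an SE of 0.33 and adjusted p = 1, 0.855 and 0.807 by limma, and 0 probes passed. Signal over background limits probe 2, which was below detection on 4 arrays, while 4 arrays per group limit probe 1.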
